A study of Sus scrofa with 6 samples.

Results

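The 10 genes described here encode nuclear receptors and coactivators of fuel use in muscle: the PPAR receptors PPARA, PPARD and PPARG, the PGC-1 coactivators PPARGC1A and PPARGC1B, the estrogen-related receptors (ERR) ESRRA, ESRRB and ESRRG, and the retinoid X receptors RXRA and RXRG. They were chosen by symbol from the Ensembl annotation of Sscrofa11.1, the pig genome build of the files, with the values of these libraries in LT and ST muscles already known. Their differences between LT and ST are therefore given as a description, without p-values. All 10 symbols were found among the 25973 protein-coding genes of the files, and they hold 33 of the 72511 transcripts. RNA came from longissimus thoracis (LT) and semitendinosus (ST) muscles of 3 Min pigs, a Chinese indigenous breed. The pigs were of the same age and of genotype WT in both groups, no treatment is listed, and each muscle gave 3 libraries with rRNA removed. The values are FPKM (fragments of a transcript scaled by its length and by the mapped fragments of the library), summed here over the transcripts of a gene. Both muscles came from the same 3 pigs, but no label says which number is which pig. Libraries with the same replicate number were taken as 1 pig, an inference that the values by pig and the block below rest on. The labels list the muscle under the tag of a cell line, but the samples were whole muscle tissue, and the 4 skeletal muscle markers that could be matched of 6 summed to 6109 to 6779 FPKM in LT and 6584 to 8970 FPKM in ST.

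PPAR receptors bind fatty acids and their derivatives, pair with an RXR on DNA, and switch on genes of fatty acid uptake, storage and oxidation. PPARA and PPARD are known for fatty acid oxidation in muscle, and PPARG for the formation of adipocytes. ERR receptors were found without a known hormone, and they turn on genes of the citric acid cycle and the respiratory chain when a PGC-1 coactivator is bound to them, while PPARGC1A itself is induced by contraction, cold and cyclic AMP and is high in slow, oxidative fibres.

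ST replicate 2 stood apart. The root mean square distance on the log2 scale of ST replicate 2 was 0.800 to the other ST libraries and 0.768 to the LT libraries, and in the other 5 libraries the distance to the own muscle was the smaller one. The 7 slow fibre markers that could be matched of 10 summed to 4458 to 6806 FPKM in LT, to 36982 and 37242 in ST replicates 1 and 3, and to 5993 in ST replicate 2. Taken singly, 4 of these 7 were higher in every ST library than in every LT library. The 8 matched fast fibre markers of 12 summed to 21829 to 29508 FPKM in LT, 4802 and 1321 in ST replicates 1 and 3, and 19696 in ST replicate 2. The 12 matched immediate early genes of 14 summed to 1039 FPKM in ST replicate 2 and to 206.2 to 316.8 in the other 5 libraries. The 6 matched endothelial markers of 8 lay at 63.7 to 88.1 FPKM in LT and 139.5 to 196.7 in ST. The sums of 7 fibroblast, 5 macrophage, 4 satellite cell and 4 blood markers overlapped between the muscles, from 637.2 to 1355 FPKM, 20.1 to 41.3, 2.15 to 4.86 and 579.1 to 1049. A sum is set mostly by its highest markers. Taken singly, 1 of the fibroblast and 2 of the blood markers were higher in ST without overlap, and the rest overlapped. No matched marker of these lists was at 0 in all libraries. Their part in the differences below was not tested, and in whole muscle, fewer cells of a type and less RNA per cell cannot be told apart.

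Of the 10 genes, 8 had a higher mean level in ST and 2, both RXR genes, a lower one. LT and ST did not overlap for PPARA, PPARD, PPARGC1A, PPARGC1B, ESRRA and ESRRB, which were higher in ST, and for RXRA and RXRG, which were lower. Over all 19679 genes tested, 16.7% were higher in ST without overlap and 8.16% were lower without overlap. A gene was called where its log2 fold change in limma lay above 1 or below -1 and its adjusted p was under 0.05, and PPARA was the 1 member called. Such calls made up 0.412% of all genes on the side higher in ST and 0.168% on the side lower in ST. With the pig as a block, 5 members were called: PPARA, PPARGC1A, ESRRB and ESRRG on the higher side and RXRG on the lower side, where 2.95% of all genes were called higher and 1.31% lower. Without ST replicate 2, the 5 members called were PPARA, PPARGC1A, PPARGC1B, ESRRB and ESRRG, with 5.15% of all genes called. The choice of the 10 genes used this contrast, so nothing is read from these counts. The count was 0 when any other single library was left out, without a filter on FPKM, without a variance trend or after quantile normalization.

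**Figure D1:**
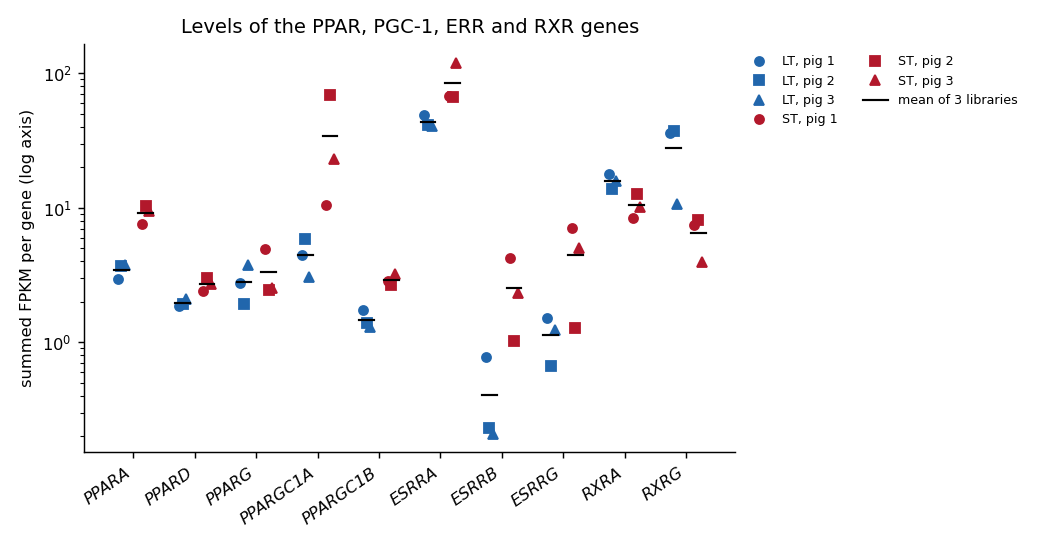
Summed FPKM per gene (log axis) of the 10 genes in the 6 libraries, with LT in blue, ST in red, a symbol for each pig and a black line for the mean of 3 libraries. ESRRA was the highest gene in every library but ST replicate 2, where PPARGC1A reached 68.7 FPKM. Without its transcript of 333 bases, PPARGC1A was at 26.7 FPKM in that library, below ESRRA at 67.0.

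**Figure D2:**
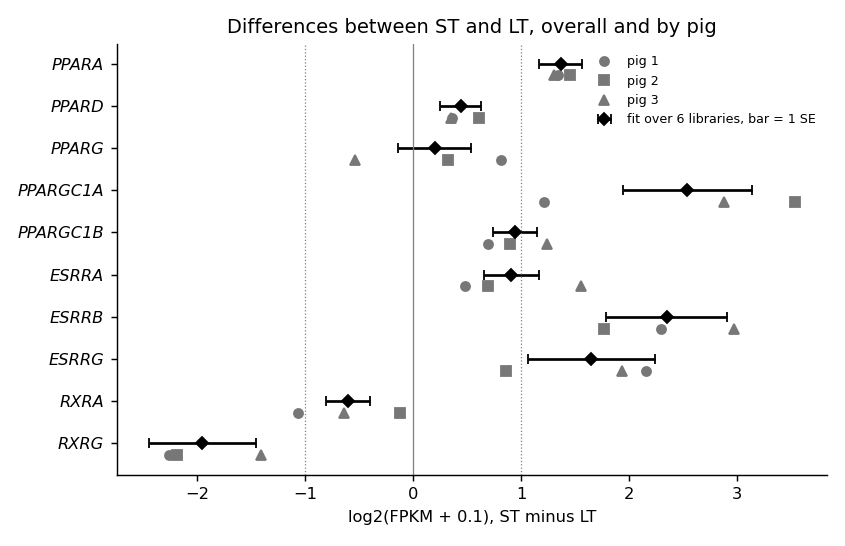
Difference of log2(FPKM + 0.1), ST minus LT, for each gene. Black diamonds are the fit over 6 libraries without the block, with a bar of 1 standard error. Grey symbols are the 3 pigs, and dotted lines mark a difference of 1. PPARG is the 1 gene whose pigs lie on both sides of 0.

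The order of the levels per length differed between the muscles. In LT, mean FPKM fell in the order ESRRA, RXRG, RXRA, PPARGC1A, PPARA, PPARG, PPARD, PPARGC1B, ESRRG and ESRRB. The range of libraries did not overlap between ESRRA and RXRG, between RXRA and PPARGC1A, or between PPARD and PPARGC1B, and it overlapped for each other pair of neighbours. In ST the order was ESRRA, PPARGC1A, RXRA, PPARA, RXRG, ESRRG, PPARG, PPARGC1B, PPARD and ESRRB, and every pair of neighbours overlapped. The place of PPARGC1A in LT rests on a transcript of 333 bases, described below. Without that transcript, the mean of PPARGC1A in LT was 2.39 FPKM, below PPARA at 3.47 and PPARG at 2.81. In ST it was 14.1 FPKM, still above RXRA at 10.4. ESRRA, at 43.6 ± 4.42 FPKM (SD, n = 3) in LT against 85.1 ± 30.3 (SD, n = 3) in ST, lay above 95.7% of all genes tested in LT and 97.6% in ST. ESRRB, the lowest of the 10, lay above 27.98% of the genes in LT and 57.1% in ST.

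PPARA, the receptor known for fatty acid oxidation in liver and muscle, lies on chromosome 5 from 3300708 to 3366361 and has 1 transcript of 10 exons in the files. Its FPKM was 2.94, 3.71 and 3.75 in LT replicates 1 to 3, and 7.62, 10.4 and 9.41 in ST replicates 1 to 3. Every ST library was above every LT library, and the 3 pigs were alike, with 2.59, 2.79 and 2.51 times the LT level in ST. The log2 difference was 1.37 (standard error 0.197), and it stayed between 1.18 and 1.49 over 16 alternatives. PPARD, the PPAR found in most tissues (chromosome 7, 31222589 to 31295212, plus strand), had FPKM of 1.86, 1.91 and 2.10 in LT and 2.41, 2.99 and 2.70 in ST. LT and ST did not overlap, but the log2 difference was 0.44 (standard error 0.188), and it was 0.23 after quantile normalization.

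PPARG, the receptor that drives adipocyte formation (chromosome 13, 68302655 to 68433947, plus strand), overlapped between the muscles. Its FPKM was 2.77, 1.93 and 3.74 in LT against 4.96, 2.44 and 2.55 in ST. Pigs 1 and 2 had the higher level in ST, at 1.79 and 1.26 times LT, and pig 3 had the lower level in ST, at 0.680 times LT. The log2 difference of 0.20 (standard error 0.340) turned to -0.12 without ST replicate 1, to -0.04 without LT replicate 2 and to -0.00 after quantile normalization. The 6 matched adipocyte markers of 7 summed to 117.4, 68.3 and 198.3 FPKM in LT against 151.3, 59.5 and 66.9 in ST. Within each muscle PPARG and the sum of these markers put the libraries in the same order, with replicate 3 highest in LT and replicate 1 highest in ST.

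The 3 PPAR genes summed to 8.23 ± 1.17 FPKM (SD, n = 3) in LT against 15.1 ± 0.583 (SD, n = 3) in ST. PPARA made up 38.9%, 49.1% and 39.1% of that sum in LT against 50.8%, 65.6% and 64.2% in ST, without overlap. The share of PPARG was 36.6%, 25.5% and 39.1% in LT against 33.1%, 15.4% and 17.4% in ST. PPARA was thus the highest of the PPAR genes in every library, though in LT replicate 3 it exceeded PPARG by 3.75 against 3.74 FPKM.

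PPARGC1A, the coactivator PGC-1 alpha, had the largest log2 difference of the 10 genes over all 6 libraries, but not without ST replicate 2, and the widest spread in ST. The gene lies on chromosome 8 from 17841844 to 17961909 on the minus strand. Its FPKM was 4.49, 5.81 and 3.05 in LT against 10.5, 68.7 and 23.1 in ST. Every ST library was above every LT library, but ST replicate 2 alone held 6.54 times the level of ST replicate 1. The level in ST was 2.34, 11.8 and 7.57 times that in LT in pigs 1 to 3. On the log2 scale ST minus LT was 2.54 (standard error 0.601) and 1.83 without ST replicate 2, where ESRRB, at 2.86, ESRRG, at 2.36, and RXRG, at -2.14, had the larger differences. With the length-weighted sum, PPARGC1A and ESRRB were both at 2.35.

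A short transcript added to the sum of PPARGC1A. ENSSSCT00000076576, with 333 bases and 5 exons, had FPKM of 2.99, 1.83 and 1.36 in LT and 4.36, 42.0 and 13.8 in ST. It made up 66.7%, 31.5% and 44.7% of the summed FPKM of the gene in LT against 41.5%, 61.1% and 59.8% in ST. Without this transcript, the sum was 1.50, 3.98 and 1.69 FPKM in LT against 6.14, 26.7 and 9.29 in ST. The muscles still did not overlap, and the mean in ST was 5.88 times that in LT, against 7.66 times with the short transcript.

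The long PPARGC1A transcripts differ in where they start. Starts in 4 groups are annotated, the farthest upstream at 17961909 and the others 14917, 19666 and 23548 bases downstream of it. When FPKM was weighted by transcript length, transcripts from the farthest upstream start made up 63.3%, 13.5% and 61.2% of the gene in LT against 73.7%, 79.0% and 32.5% in ST. Transcripts from the start 14917 bases downstream made up 34.6%, 85.6% and 37.6% in LT against 24.95%, 18.2% and 65.9% in ST. The shares overlapped between the muscles, and for the upstream start the means of 45.998% in LT and 61.7% in ST lay closer together than the spread within a muscle (SD of 28.2 and 25.4, n = 3 each). ENSSSCT00000080353, a transcript of 13 exons from the upstream start, had FPKM of 0.213, 0 and 0 in LT and 1.71, 12.2 and 1.85 in ST, without overlap. ENSSSCT00000090930, also of 13 exons from that start, had 0.640, 0.432 and 0.970 in LT and 2.66, 7.36 and 0.589 in ST, with overlap. The positions of these transcripts overlap, so their separate values are less certain than the sum.

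ST replicate 2, with the highest PPARGC1A level, was also the library with the highest sum of immediate early genes, a group that includes genes induced within minutes of contraction, stress or handling. ST replicate 3, with PPARGC1A at 23.1 FPKM, had an immediate early sum of 287.7 FPKM, and LT replicate 1, with PPARGC1A at 4.49, had 316.8. Whether the immediate early signal bears on PPARGC1A was not tested.

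PPARGC1B, the related coactivator PGC-1 beta (chromosome 2, 150823373 to 150919378, plus strand), had FPKM of 1.73, 1.39 and 1.30 in LT and 2.86, 2.67 and 3.23 in ST. LT and ST did not overlap, and ST replicate 2 was the lowest of the ST libraries for this gene, unlike for PPARGC1A. This was a log2 difference of 0.95 (standard error 0.203), 1.01 without ST replicate 2 and 0.67 with a pseudocount of 1. The coefficient of variation was 9.70% in ST against 89.8% for PPARGC1A. PPARGC1A made up 72.2%, 80.7% and 70.04% of the 2 coactivator genes in LT against 78.6%, 96.3% and 87.7% in ST. These shares include the short transcript ENSSSCT00000076576. Without it, PPARGC1A was at 1.50 FPKM in LT replicate 1, below PPARGC1B at 1.73. It was above PPARGC1B in each other library.

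ESRRA, an ERR found in all oxidative tissues (chromosome 2, 7803510 to 7813836, minus strand), had FPKM of 48.7, 41.4 and 40.8 in LT against 68.1, 67.0 and 120 in ST. The muscles did not overlap, and ST replicate 3 was well above the other ST libraries. This gave a log2 difference of 0.91 (standard error 0.256) and 0.63 without ST replicate 3. All of this came from 1 transcript, ENSSSCT00000014241, and the other ESRRA transcript was listed at 0 in all libraries. ESRRA made up 95.5% to 97.9% of the sum of ERR genes in LT and 85.8% to 96.7% in ST.

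ESRRB and ESRRG, both related to ESRRA and both low in FPKM, differed more between the muscles on the log2 scale than ESRRA did. ESRRB (chromosome 7, 99514168 to 99699011, plus strand) had FPKM of 0.780, 0.230 and 0.209 in LT and 4.24, 1.02 and 2.33 in ST. LT and ST did not overlap, and replicate 1 was the highest library of each muscle. The log2 difference was 2.35 (standard error 0.564), and it was 1.25 with a pseudocount of 1 in place of 0.1. The gene was 5.44, 4.46 and 11.2 times higher in ST in pigs 1 to 3.

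ESRRG, the ERR known from heart and slow muscle (chromosome 10, 6712841 to 7030063, minus strand), had FPKM of 1.51, 0.661 and 1.24 in LT and 7.06, 1.28 and 5.05 in ST. ST replicate 2 lay below LT replicate 1, so the muscles overlapped, although ST was higher within each pig, at 4.68, 1.94 and 4.06 times LT. The log2 difference was 1.65 (standard error 0.588) and 2.36 without ST replicate 2. ESRRB and ESRRG had their lowest ST value in replicate 2, as did PPARG, PPARGC1B and ESRRA. In that library the sum of the 7 matched slow fibre markers lay within the LT range. Taken singly, 4 of the 7 were above every LT library there, and the sum of the fast fibre markers was below the LT range.

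The RXR genes, whose products pair with PPAR receptors on DNA, had the opposite direction. RXRG, the RXR known for its restriction to muscle and parts of the brain (chromosome 4, 85158276 to 85357137, plus strand), had FPKM of 36.2, 37.2 and 10.7 in LT and 7.49, 8.07 and 3.96 in ST. Every LT library was above every ST library, and replicate 3 was the lowest in each muscle. The level in LT was 4.84, 4.61 and 2.69 times that in ST in pigs 1 to 3. The log2 difference was -1.95 (standard error 0.496), and it lay between -2.54 and -1.63 over the 16 alternatives. RXRG, the second highest of the 10 genes in LT, was the fifth in ST.

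RXRA, the RXR found in most tissues (chromosome 1, 273705503 to 273797622, plus strand), had FPKM of 17.8, 13.8 and 15.9 in LT against 8.46, 12.6 and 10.2 in ST. The muscles did not overlap, but in pig 2 the level in LT was 1.09 times that in ST, against 2.10 and 1.56 times in pigs 1 and 3. On the log2 scale ST minus LT was -0.61 (standard error 0.204). RXRA and RXRG together reached 54.0, 50.9 and 26.6 FPKM in LT against 15.9, 20.7 and 14.2 in ST. RXRG made up 67.1%, 73.0% and 40.2% of that sum in LT against 47.0%, 39.0% and 28.0% in ST, so the shares overlapped. RXRB, the remaining RXR gene, which was singled out after its values were seen, had FPKM of 6.15, 5.45 and 6.41 in LT and 6.19, 5.35 and 6.28 in ST. Its log2 difference was -0.02 (standard error 0.171, adjusted p = 0.970 from limma).

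In PPARG and ESRRG the share of a transcript stood out in 1 library. For PPARG, transcript ENSSSCT00000012672, of 7 exons, made up 98.1% to 99.2% of the length-weighted FPKM in all libraries but ST replicate 3, where it made up 30.6%. In that library, ENSSSCT00000038744, of 9 exons and with a start 61218 bases upstream of the other, had FPKM of 1.73, against 0.0192 to 0.0665 in the other 5 libraries. For ESRRG, the transcript from the start farthest upstream, ENSSSCT00000011830, made up 61.8% of the gene in ST replicate 2 and 2.85% to 18.3% in the other 5 libraries. The FPKM of this transcript was 0.277, 0.106 and 0.0714 in LT against 0.202, 0.793 and 0.585 in ST. The ESRRG transcript from the downstream start, ENSSSCT00000060504, had FPKM of 1.23, 0.555 and 1.17 in LT and 6.86, 0.487 and 4.46 in ST, so ST replicate 2 was below every LT library for it.

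**Figure D3:**
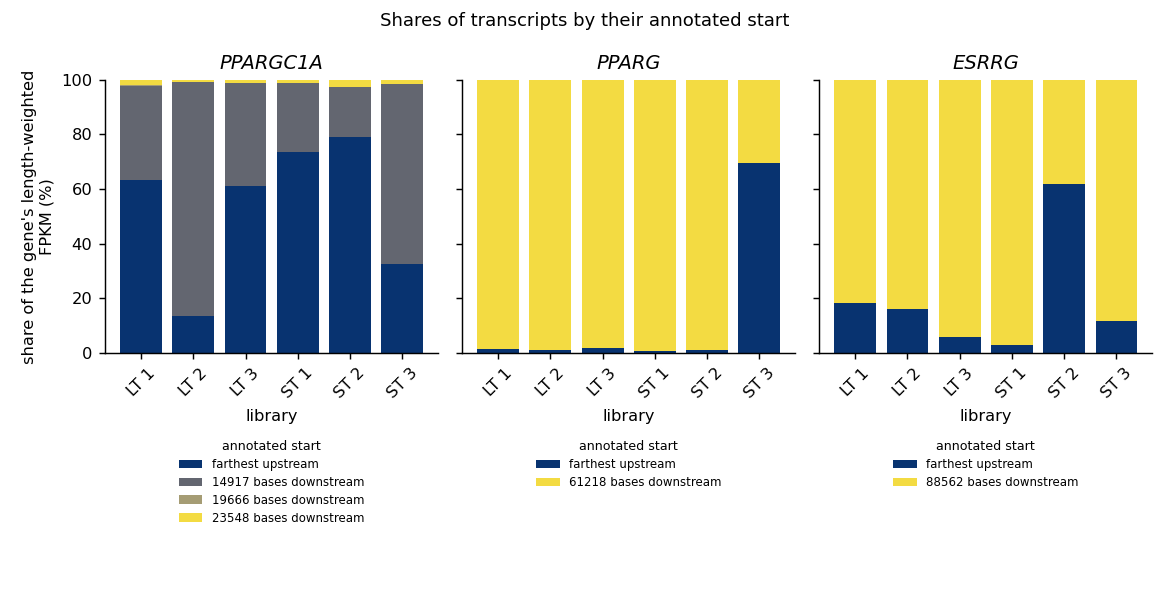
Share of the length-weighted FPKM of PPARGC1A, PPARG and ESRRG by annotated transcript start in each library, with the start farthest upstream in dark blue. That start makes up 69.4% of PPARG in ST replicate 3 and 61.8% of ESRRG in ST replicate 2.

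RXRA had 6 annotated transcripts with 6 starts, 5 of them above 0 in some library, and no start made up more than 54.6% of the gene in any library. ENSSSCT00000057575 was listed at 0 in LT replicates 1 and 3 and ST replicate 1, and at 0.623 FPKM in ST replicate 3. It reached 3.12 FPKM in LT replicate 2 and 3.20 in ST replicate 2, both libraries of pig 2. These 5 transcripts have 10 or 11 exons, 5042 to 5542 bases and overlapping positions, so their separate values are less certain than the sum. RXRG was nearly all ENSSSCT00000048789, at 87.5% to 100% in each library. A transcript that starts 150232 bases upstream, ENSSSCT00000006936, was listed at 0 in ST replicate 2 and every LT library, and had FPKM of 0.180 and 0.506 in ST replicates 1 and 3.

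Transcripts of other genes overlap 9 of the 10 genes, all but PPARD. Of these, 15 were lncRNAs (5) or unannotated mRNAs (10), all on the strand opposite to the member, and mean FPKM ranged from 0.0661 to 1.47. None was called by limma, with adjusted p-values from 0.376 to 0.998, and 3 had an unadjusted p under 0.05. Over all 52102 transcripts tested, 0.146% were called and 9.69% had an unadjusted p under 0.05. Another 7 annotated transcripts of other genes overlapped a member, and of the 5 that passed the filter and were tested, 0 were called by limma and 1 had an unadjusted p under 0.05.

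Among the unannotated mRNAs, 6 had 8 to 13 exons and ran along 5 of the members. Novel_000746, of 10 exons on the opposite strand of RXRA, had FPKM of 2.07, 1.37 and 1.90 in LT and 1.04, 1.28 and 1.13 in ST, which was 9.94% to 12.2% of RXRA in every library. Novel_005853, of 10 exons opposite RXRG and named after its values were seen, had FPKM of 1.42, 1.67 and 0.364 in LT and 0.430, 0.328 and 0.111 in ST. That was 2.80% to 5.74% of RXRG. The means of both were higher in LT, as were those of the genes on the other strand, and Novel_005853 overlapped between the muscles. The library kit keeps the strand, but the strand setting of the counting is not given in the sources used here, so reads of a gene and of a transcript opposite to it may not be fully separated.

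ESRRA overlaps its neighbours. ENSSSCT00000014242 of TRMT112, on the opposite strand, had FPKM of 52.5, 54.1 and 48.4 in LT and 33.0, 26.3 and 20.3 in ST (adjusted p = 0.268 from limma). The other TRMT112 transcript across ESRRA, ENSSSCT00000060334, had a mean of 2.65 FPKM, and ENSSSCT00000084255 of PRDX5, on the strand of ESRRA, had a mean of 2.05 FPKM. The last shares positions with the end of ESRRA, so some reads could count for either gene, though its level was 1.31% to 5.82% of that of ESRRA.

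The genes that act with or on the 10 regulators were taken by textbook role, in 6 lists. The lists were set with earlier results of these data known, so their counts and medians are a description. The median log2 difference over all genes tested was 0.13, and it was -0.01 after quantile normalization. It was positive for 61.0% of all genes, for 49.4% after quantile normalization and for 67.1% with FPKM rescaled to nuclear transcripts. Among all genes, 4.63% had an unadjusted p under 0.05 and a fold above that of a call on the higher side, and 2.47% on the lower side.

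**Figure D4:**
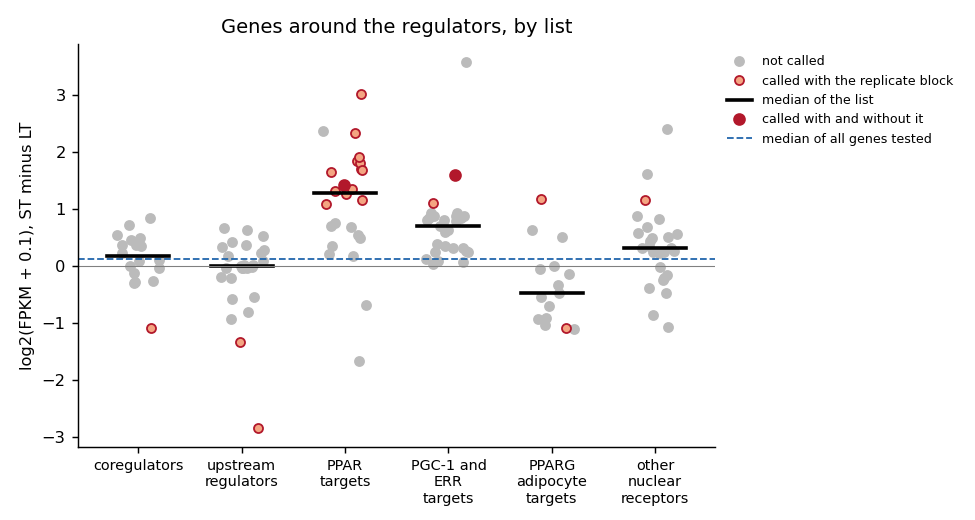
Difference of log2(FPKM + 0.1), ST minus LT, of the tested genes in 6 lists, with black lines for the median of each list and a dashed line for the median of all genes tested. PPAR targets have a median of 1.28 and adipocyte targets of PPARG a median of -0.48.

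PPAR targets, genes of fatty acid uptake, storage and oxidation, were mostly higher in ST. Of 30 listed, 26 were tested, 24 had a positive log2 difference (23 after quantile normalization) and the median was 1.28. LPL, the lipase that frees fatty acids from blood lipoproteins, was the 1 gene called, and it rose. Its FPKM was 62.1, 74.0 and 62.6 in LT against 169.2, 172.6 and 186.4 in ST (log2 1.41, standard error 0.177, adjusted p = 0.0248 from limma, 0.00886 to 0.113 over the alternatives). With the pig as a block, 15 were called, all higher in ST, and without ST replicate 2 there were 10. LPL was not called when any library other than ST replicate 2 was left out.

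Past the fold of a call and with an unadjusted p under 0.05, 12 PPAR targets were higher in ST and 0 lower, and 12 were higher without overlap. FABP3, the fatty acid binding protein of heart and muscle, had FPKM of 141.6, 100.1 and 153.3 in LT and 909.3, 532.1 and 2364 in ST (log2 3.01, adjusted p = 0.0516 from limma, 0.0151 with the pig as a block, 0.00646 to 0.194 over the alternatives). ACADVL, which starts the oxidation of very long fatty acids, had FPKM of 65.6, 67.7 and 85.2 in LT and 196.1, 171.5 and 511.9 in ST (log2 1.83, adjusted p = 0.0735 from limma, 0.0249 with the block, 0.0249 to 0.239 over the alternatives). ACADM, for medium chains, had a log2 difference of 1.26 and ACAA2, the last step of the cycle, one of 1.69, with 0.0752 and 0.0735 as adjusted p-values from limma. In ACADM the block gave 0.0249, and in ACAA2 it gave 0.0177. The exceptions were named after their values were seen. VLDLR, a lipoprotein receptor, was lower in ST without overlap, at 52.7, 53.7 and 63.7 FPKM in LT and 29.9, 44.1 and 32.3 in ST, and UCP3, a mitochondrial carrier, overlapped at 22.3, 50.97 and 87.6 FPKM in LT against 2.13, 49.1 and 28.2 in ST. The adjusted p-values were 0.130 and 0.432 from limma.

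Targets of PGC-1 and ERR, which are genes of the citric acid cycle, the respiratory chain and its regulators, were mostly on the higher side in ST, by less. All 28 tested of 30 listed had a positive log2 difference (24 after quantile normalization), with a median of 0.70, and 17 were higher without overlap, but 1 was called. VEGFA, the growth factor for blood vessels, rose from 16.7, 10.9 and 13.7 FPKM in LT to 42.4, 40.6 and 41.0 in ST (log2 1.60, standard error 0.195, adjusted p = 0.0226 from limma, 0.0118 to 0.103 over the alternatives). VEGFA was likewise not called when any library other than ST replicate 2 was left out. With the block 2 genes of the list were called, and 2 were past that fold with an unadjusted p under 0.05, VEGFA among them each time. Without ST replicate 2, 5 genes of the list were called.

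UQCRC2, a subunit of respiratory complex III, SLC2A4, the insulin-dependent glucose transporter, and SDHA, of complex II, had log2 differences of 0.93, 0.87 and 0.70 without overlap. Their adjusted p-values from limma were 0.0752, 0.0797 and 0.0869. Mitochondrial transcripts made up 3.31%, 2.91% and 4.25% of the length-weighted FPKM in LT and 8.06%, 6.15% and 8.48% in ST, without overlap. ST replicate 2, with the highest PPARGC1A, had the lowest mitochondrial share of the ST libraries.

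Targets of PPARG in adipocytes had more genes on the lower side in ST. Of 18 listed, 15 were tested, 12 had a negative log2 difference (10 with FPKM rescaled to nuclear transcripts), and the median was -0.48. None was called by limma, and 1 higher and 2 lower passed an unadjusted p under 0.05 with the same fold. With the block, GPD1, which makes glycerol phosphate, was called lower in ST, and PNPLA2, the first lipase of stored fat, higher. GPD1 had FPKM of 370.4, 294.3 and 244.0 in LT and 158.5, 202.9 and 84.6 in ST (adjusted p = 0.146 from limma, 0.0490 with the block, 0.0490 to 0.330 over the alternatives). PNPLA2 had FPKM of 9.84, 11.6 and 19.3 in LT and 23.9, 19.2 and 55.8 in ST (adjusted p = 0.184 from limma, 0.0299 with the block, 0.0299 to 0.400 over the alternatives). LEP, the hormone leptin, was at 0.185 to 0.253 FPKM in LT and 0.0389 to 0.0809 in ST, and PCK1, of glycerol formation, was at or below 0.296 FPKM in every library. Their adjusted p-values from limma were 0.110 and 0.283.

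Of the coregulators that bind these receptors, 18 of 20 were tested and 0 were called by limma, with 0 higher and 1 lower past that fold with an unadjusted p under 0.05. The median log2 difference was 0.17, and -0.01 after quantile normalization. That 1 gene was NRIP1, a corepressor of oxidative genes, with FPKM of 28.9, 32.4 and 28.6 in LT and 15.3, 19.4 and 9.18 in ST (log2 -1.09, adjusted p = 0.0940 from limma, 0.0267 to 0.278 over the alternatives). It was called lower in ST with the block (adjusted p = 0.0370 from limma). NCOA3, a coactivator, had FPKM of 5.68, 4.81 and 5.78 in LT and 8.33, 11.6 and 9.53 in ST (log2 0.84, adjusted p = 0.0796 from limma). NCOA2, another coactivator, and NCOR1, a corepressor, had log2 differences of 0.54 and 0.50, both higher in ST without overlap, with 0.184 and 0.194 as adjusted p-values from limma.

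Among upstream regulators of PPARGC1A, 26 of 28 were tested, 0 were called by limma, and 13 had a positive and 13 a negative log2 difference, with a median of -0.01. The balance turned with the scaling, to 9 positive and 17 negative (median -0.12) after quantile normalization and to 18 positive and 8 negative (median 0.07) with FPKM rescaled to nuclear transcripts. Past that fold with an unadjusted p under 0.05 there were 2, both lower in ST, and both were called with the block. PRKAG3, the AMPK subunit of fast glycolytic fibres, had FPKM of 18.3, 29.02 and 33.3 in LT and 2.74, 9.52 and 1.64 in ST (log2 -2.85, adjusted p = 0.0663 from limma, 0.0274 with the block, 0.00319 to 0.225 over the alternatives). PPP3R1, the regulatory subunit of calcineurin, had FPKM of 39.2, 41.7 and 42.1 in LT and 12.8, 26.2 and 12.6 in ST (log2 -1.34, adjusted p = 0.0729 from limma, 0.0320 with the block, 0.00373 to 0.239 over the alternatives). PRKAA2, the catalytic AMPK subunit of muscle, and CAMK2D, a calcium-dependent kinase, were lower in ST without overlap, with log2 differences of -0.82 and -0.59 and adjusted p-values of 0.0968 and 0.165 from limma.

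Of 30 other nuclear receptors, 26 were tested, 0 were called by limma, and the median log2 difference was 0.32. With an unadjusted p under 0.05 and past that fold there were 2, both higher in ST. NR4A2, an orphan receptor induced by activity, had FPKM of 2.17, 2.11 and 2.40 in LT and 4.16, 5.86 and 5.28 in ST (log2 1.15, adjusted p = 0.0561 from limma, 0.0282 with the block, 0.0282 to 0.195 over the alternatives), and it was the 1 gene of the list called with the block. NR3C2, the mineralocorticoid receptor, and RARA, a retinoic acid receptor, had log2 differences of 0.88 and 0.56, with 0.211 and 0.271 as adjusted p-values from limma.

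The genes most like PPARGC1A, ESRRB and RXRG, the 3 members with the largest log2 difference, were found by the root mean square difference of log2 profiles over the 6 libraries, each centred on its own mean, among 9077 genes. For PPARGC1A they were SLC4A10, SLC19A2, DDIT3, EVA1C and MAFF, at 0.376 to 0.525, where the median gene was at 1.51. In all 5, ST replicate 2 was the highest library, as for DDIT3, a transcription factor of the stress response, with FPKM of 13.6, 11.7 and 13.8 in LT and 22.3, 105.9 and 53.9 in ST. For ESRRB they were MYH7B, TMC7, KCNJ3, ABHD18 and TFRC, at 0.311 to 0.387 (median gene 1.34). MYH7B, a slow myosin heavy chain, had FPKM of 3.11, 1.47 and 1.57 in LT and 27.1, 5.43 and 17.4 in ST. For RXRG they were INTS15, LINGO1, PGM2L1, PBX3 and IQCK, at 0.430 to 0.511 (median gene 1.31). PGM2L1, which makes a sugar bisphosphate, had FPKM of 32.9, 32.0 and 16.0 in LT against 5.70, 13.3 and 2.61 in ST. These genes were picked for their likeness over the same 6 libraries, so their levels are a description.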

How the data were processed

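The authors removed rRNA, made directional libraries, used HISAT2 to map the reads to Sscrofa11.1 and StringTie for assembly, and deposited 1 FPKM value for each transcript and library, scaled by transcript length and mapped fragments. Fragment counts per transcript are not given in these files, so the depth behind a value is unknown and no counting interval was computed. The members and the lists of genes were chosen with earlier results of these data known.

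FPKM was summed per gene ID with at least 1 mRNA transcript. The fit was limma 3.58.1 (R 4.3.3), trend included, to log2(FPKM + 0.1) of ST against LT. It covered 19679 genes, or 52102 transcripts in a second fit, that passed FPKM of 0.1 in some library. Benjamini-Hochberg adjustment ran over all of them. Calls had a log2 fold change above 1 or below -1 with an adjusted p under 0.05. Fold changes are on the log2(FPKM + 0.1) scale, which understates those of low genes. On simulated data for this comparison, with 200 of 19679 genes changed by 4 on the log2 scale, 184 were recovered with 7 other calls, and 172 with 2 other calls with the block. The largest log2 difference of the 10 genes was 2.54, that of PPARGC1A. Recovery of differences below 4 was not tested, with or without the block. Sums and plots were made in Python 3.11.15 with pandas 2.3.3, numpy 2.4.6 and matplotlib 3.10.9.

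The study sampled both muscles of the same 3 pigs, and no label ties a number to a pig. That the same number marks the same pig was inferred. The residuals of same-numbered libraries correlated at 0.301, 0.276 and 0.303, against -0.199 to -0.116 for other pairs. Residuals were centred within each muscle, which ties the values of other pairs to those of the same number. The negative range is therefore not separate support. Nor can the correlations tell a pig from anything else that libraries of the same number share. Calls with the block are given as counts for the members and each list, and with adjusted p-values for some genes. The standard errors are those of the fit without the block. With it, they were 0.406 for PPARGC1A, 0.282 for ESRRB, 0.283 for ESRRG and 0.209 for RXRG. The block gave a smaller standard error for each member but RXRA, at 0.209 against 0.204. Without the block, the p-values rest on the spread between these 3 pigs per muscle. With the block, they rest on the spread of the difference between ST and LT across the 3 pigs.

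The genes named were all members and their transcripts, of each list the genes called and up to 4 more with the smallest p, of the transcripts across members up to 4 with the highest mean FPKM, and the 5 nearest profiles, among genes with a symbol and FPKM above 1 in at least 3 libraries, of 3 members. Some items chosen by this rule are not reported here. Markers were used as sums and counts. Alternatives were other pseudocounts (0.01 and 1), other filters, the block, quantile normalization, rescaling to nuclear transcripts, no variance trend and leaving out each library. A length-weighted sum and a fit on annotated genes alone were added after seeing the data.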

Additional observations from a re-analysis of the deposited data

How the results depend on the processing

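The log2 differences of the 10 genes kept their sign in all 16 alternatives except for PPARG, which had the other sign in 3. Of 160 such values, 4 moved by more than the spread between replicates. These were PPARD at 0.23 and PPARGC1B at 0.76 after quantile normalization, and PPARGC1B at 0.67 and ESRRB at 1.25 with a pseudocount of 1. The block, the other filters, no variance trend and annotated genes alone leave a log2 difference as it is, so those values could not move. PPARGC1A at 1.83 and ESRRG at 2.36 without ST replicate 2 were not counted as moved. The count of 4 is therefore not a measure of stability. The number of genes called moved more, from 114 (81 higher and 33 lower in ST) to 838 with the replicate block, to 264 with FPKM rescaled to nuclear transcripts, to 62 (33 higher and 29 lower) after quantile normalization, to 31 without a variance trend and to 6 without a filter on FPKM. Leaving out 1 library gave 11 to 1006 genes, with the highest number without ST replicate 2. For the members, 1 was called, 5 with the replicate block, 0 without a filter, without a trend or after quantile normalization, and 0 to 5 with 1 library left out. For PPAR targets, 1 was called, 15 with the block, 2 with FPKM above 1 in at least 3 libraries or rescaled to nuclear transcripts, 0 without a filter or a trend, and 0 to 10 with 1 library left out. For PGC-1 and ERR targets, 1 was called, 2 with the block, 0 without a filter or a trend, and 0 to 5 with 1 library left out. In the lists with 0 calls, the block gave 1 coregulator, 2 upstream regulators, 2 adipocyte targets and 1 other nuclear receptor. Leaving out 1 library gave 0 to 1 coregulators, 0 to 2 upstream regulators, 0 to 1 adipocyte targets and 0 to 3 other nuclear receptors, and each highest number was that without ST replicate 2. The stricter filter and the rescaling each gave 1 other nuclear receptor. The lncRNAs and unannotated transcripts at the member loci gave 0 calls under every alternative run on transcripts. The causes of these moves were not tested. No unannotated mRNA transcript overlaps a member on its own strand, so adding such transcripts gave no other value. FPKM without fragment counts limits what can be said of ESRRB in LT, at or under 0.780 FPKM.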

Other observations

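Pig 3, as inferred from the replicate numbers, had the highest level of most PPAR targets in both muscles, a pattern that was looked for after the values were seen. Of 26 PPAR targets tested, 21 had their highest LT and their highest ST value in pig 3, with 0 in pig 1 and 0 in pig 2. Over all genes tested, pig 3 was highest in both muscles for 18.8%, pig 1 for 17.1% and pig 2 for 8.57%. PLIN2, a coat protein of lipid droplets, had FPKM of 20.8, 21.3 and 108.6 in LT and 35.9, 73.5 and 304.9 in ST. MLYCD, which removes malonyl-CoA, had FPKM of 1.06, 2.26 and 8.19 in LT and 2.94, 5.19 and 21.3 in ST. PDK4, a kinase that shuts off pyruvate oxidation, had FPKM of 22.6, 13.7 and 199.0 in LT and 52.0, 407.1 and 412.6 in ST. None of the 10 regulators had its highest value in pig 3 in both muscles. Of the 28 tested targets of PGC-1 and ERR, 2 had it, so the pattern differed between the lists in count, and these genes of 1 pathway are not independent of each other.

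COX4I1, a subunit of respiratory complex IV, had the largest log2 difference of the PGC-1 and ERR targets, 3.57, with an adjusted p of 0.458 from limma. Its FPKM was 50.6, 0.205 and 0.948 in LT against 206.2, 0.755 and 155.3 in ST, so it was below 1 FPKM in both libraries of pig 2 and in LT replicate 3. COX5B, another complex IV subunit, named after its values were seen, was at 146.4 FPKM or more in every library. What lies behind the low values of COX4I1, in the RNA or in how reads were assigned, was not tested.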
